A study of Mus musculus with 4 samples.

Results

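The core circadian clock genes are described here in nascent transcription of mouse liver, in both the promoter-proximal region and the gene body. The 10 members were chosen by name and not by their values: *Arntl*, *Clock*, *Npas2*, *Per1*, *Per2*, *Per3*, *Cry1*, *Cry2*, *Nr1d1* and *Nr1d2*. They are 10 of the 20642 gene symbols listed, each with 1 transcript, and all 10 were among the 12705 genes counted as active. With the cutoff on activity scaled by the reads on genes, *Npas2* was not among the 11100 genes left. PRO-seq sequences the RNA that engaged polymerases extend in a nuclear run-on, so it reads transcription and not mRNA. Livers of C57BL/6 mice were taken on day 14, with 2 WT libraries (WT1 and WT2) and 2 *Hdac3* KO libraries (KO1 and KO2). The WT mice were *Hdac3* +/+ and the KO mice fl/fl or fl/-, and both carried *Alb-Cre*, in which the albumin promoter drives Cre in hepatocytes, while the libraries were made from whole liver. Each library came from nuclei pooled over several mice. The p-values therefore rest on the spread between 2 pools of a genotype, not on that between mice. The main test, limma, also draws the spread of each gene towards a trend over all active genes. Where the pools of 1 gene differ widely, its SE can thus understate that spread. The sources used here do not give the time of day at which the livers were taken.

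The clock is a loop of transcription and repression that runs in almost every cell, and in the liver it times the genes of metabolism. BMAL1, the product of *Arntl*, pairs with CLOCK or NPAS2 and binds E-box sequences in the *Per*, *Cry* and *Nr1d* genes. The PER and CRY proteins then repress this pair, which closes the main loop. A second loop runs through REV-ERBα and REV-ERBβ, the products of *Nr1d1* and *Nr1d2*, which compete with the activating ROR proteins for response elements in *Arntl* and repress it through the NCOR1 corepressor, whose enzyme is HDAC3.

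Promoter windows of RefSeq on GRCm38.p6, from 250 bases before to 50 after the start site, were found for 9 of the 10 genes. *Per2* is the gene with no entry. The sequences below show where the letters of clock response elements stand in the members, in capitals, read 5′ to 3′ on the strand of the gene. Searched on both strands were CACGTG (E-box), TTACGTAA and TTATGTAA (D-box, bound by the DBP family and by NFIL3) and AGGTCA (the core of REV-ERB and ROR elements). No motif overlapped another in these windows. The *Per1* stretch is chr11:69098763-69098947 (+) and holds an E-box and, on the other strand, AGGTCA written as TGACCT. The *Per3* stretch is chr4:151044666-151044890 (-) with TTATGTAA in 2 places. The *Cry1* stretch is chr10:85185065-85185164 (-) with an E-box, and the *Nr1d2* stretch is chr14:18239128-18239227 (-) with AGGTCA. *Nr1d1*, the member that rose in the gene body, is shown at chr11:98775378-98775497 (-), where none of these letters was found. All 5 stretches end upstream of the annotated start sites. The *Arntl* site, chr7:113207528-113207557 (+), lies in an exon of the counted transcript, in the 5′ UTR, with AGGTCA starting at base 78 of the transcript.
Per1: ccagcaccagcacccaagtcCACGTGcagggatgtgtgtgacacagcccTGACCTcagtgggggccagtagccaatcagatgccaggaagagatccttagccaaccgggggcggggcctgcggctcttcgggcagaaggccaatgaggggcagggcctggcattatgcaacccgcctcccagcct
Per3: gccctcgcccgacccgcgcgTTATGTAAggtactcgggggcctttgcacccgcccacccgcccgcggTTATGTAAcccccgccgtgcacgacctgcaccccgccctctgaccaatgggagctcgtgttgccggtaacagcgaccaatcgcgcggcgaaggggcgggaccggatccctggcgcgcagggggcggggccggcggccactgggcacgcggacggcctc
Cry1: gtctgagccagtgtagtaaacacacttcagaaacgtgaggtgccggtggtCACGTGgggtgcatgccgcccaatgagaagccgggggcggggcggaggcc
Nr1d2: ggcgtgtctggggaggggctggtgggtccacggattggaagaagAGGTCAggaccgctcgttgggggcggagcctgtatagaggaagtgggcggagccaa
Nr1d1: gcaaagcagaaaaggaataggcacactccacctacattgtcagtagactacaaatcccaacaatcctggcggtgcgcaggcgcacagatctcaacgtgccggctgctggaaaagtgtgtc
Arntl site: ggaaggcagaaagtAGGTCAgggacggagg

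Over all 32851 windows of all genes, CACGTG stood in 7.15%, TTACGTAA in 0.119%, TTATGTAA in 0.938% and AGGTCA in 16.3%. Among the clock genes, in any of their windows, 2 had the E-box letters, 1 a D-box and 4 AGGTCA. The fourth is *Clock*, at an alternative start site inside the gene. The shares count windows and the clock genes are counted by gene, with several windows each for *Clock*, *Arntl* and *Per1*. The counts and shares are thus not on the same scale. The 3 members with the E-box or D-box letters, *Per1*, *Cry1* and *Per3*, all had lower gene body reads in both KO libraries. So did 8 of the 10 members and 42.8% of active genes, and a link to these letters was not tested. These matches describe letters in a short window, and elements further away were not searched.

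The counted reads on genes numbered 16628518 to 26190040 per library, and promoter-proximal reads were 9.38 and 10.3% of them in WT and 13.6 and 17.0% in KO. Reads on *Hdac3* did not show the deletion, with gene body values of 665 and 648 normalized reads in WT and 609 and 582 in KO (log2 fold change -0.14, SE 0.13, adjusted p = 0.413 from limma), so the genotypes rest on the labels. *Ncor1* had a gene body log2 fold change of -0.11 (SE 0.11, adjusted p = 0.437). Marker genes of liver cell types also differed: 5 of 6 hepatocyte markers fell in the gene body, and their summed normalized reads were 260032 and 266519 in WT and 115292 to 121012 in KO. All 6 stellate cell markers and 5 of 6 endothelial markers rose, from sums of 9491 and 10642 to 19568 and 21259 and from 49387 and 53078 to 82875 and 92957. All 3 erythroid markers measured fell, from 615 and 787 to 228 and 283. None of the 5 Kupffer and myeloid markers measured was called in the gene body (15977 and 16034 in WT, 17404 and 20745 in KO). Of the 3 active cholangiocyte markers 1 fell, while their median log2 fold change was 0.44. Sums over all 6 cholangiocyte markers, active or not, were 176 and 226 in WT and 184 and 207 in KO. No marker in the table was at 0 reads in any library. In whole liver, fewer cells of a type and less nascent RNA per cell cannot be told apart, and the part of cell makeup in the clock gene values was not tested.

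In the gene body, from 1 kb downstream of the start site to the end of the transcript, 4 of the loop's 10 members had fewer engaged polymerases in KO and 1 had more. *Arntl*, *Npas2*, *Per1* and *Cry2* fell, *Nr1d1* rose, and the other 5 members did not pass both thresholds, set in limma at 0.05 for the adjusted p and at 0.6 for the size of the log2 fold change in either direction. The 4 that fell stand against 11.4% of active genes called down, and the 1 that rose against 10.4% called up. In 8 of the 10 genes both KO libraries lay below both WT libraries, as in 42.8% of active genes, and in 1 both lay above, as in 27.6%. The median log2 fold change (KO over WT) was -0.46 over the members and -0.09 over all active genes. All values are reads scaled by the authors with 1 factor per library. When limma was run over all 20642 genes with no filter on low values, 0 members were called, with 6 at an unadjusted p under 0.05. In that setting 406 genes were called up and 591 down, against 1324 and 1449 of the 12705 active genes in the main fit.

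Among the activators, *Arntl* showed the clearest separation. WT1 and WT2 held 6956 and 6717 normalized gene body reads of it, and KO1 and KO2 held 4085 and 3503. The mean was 6837 ± 169 in WT and 3794 ± 412 in KO (SD, n = 2), 1.81-fold lower (log2 fold change -0.85, SE 0.11, adjusted p = 1.29e-06 from limma). *Npas2*, the partner of BMAL1 that can stand in for CLOCK, had 1389 and 1556 normalized reads in WT and 1035 and 749 in KO (log2 fold change -0.74, SE 0.14, adjusted p = 1.32e-04). The groups did not overlap, but the 2 KO libraries differed by 0.47 on the log2 scale, and without KO2 the log2 fold change of *Npas2* was -0.51 and the call was lost. *Clock* itself had 3198 and 2903 in WT and 2803 and 2728 in KO, a log2 fold change of -0.14 (SE 0.11, adjusted p = 0.326). The lowest WT and the highest KO value of *Clock* were 0.05 apart on the log2 scale, less than the 0.14 between its WT libraries.

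Of the period genes, which encode repressors of the BMAL1 pair, *Per1* fell. It had 3413 normalized gene body reads in WT1 and 5331 in WT2, and 2258 in KO1 and 2139 in KO2. Both KO libraries lay below WT, while the 2 WT libraries differed by 0.64 on the log2 scale, against a median absolute difference of 0.14 between them over active genes. The log2 fold change of *Per1* was -0.96 (SE 0.14), with an adjusted p of 9.27e-06 from limma, 4.19e-06 from edgeR and 0.00713 from DESeq2. It was -1.28 without WT1 and -0.63 without WT2. *Per2* had 2668 and 2780 in WT and 2097 and 2555 in KO (-0.23, SE 0.12, adjusted p = 0.114). *Per3* had 1695 and 1436 in WT and 1094 and 1284 in KO, and its log2 fold change of -0.40 (SE 0.12, adjusted p = 0.0133) passed the p threshold but not the threshold on size. The whole *Per3* transcript lies inside the annotated gene *Camta1* on the same strand, so reads of the 2 genes cannot be told apart there.

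The cryptochromes, the partners of the PER proteins, differed in size of change. *Cry2* had 3605 and 3090 normalized gene body reads in WT and 1584 and 1786 in KO. This was 3347 ± 364 against 1685 ± 143 (mean ± SD, n = 2), 1.98-fold lower (log2 fold change -0.99, SE 0.12, adjusted p = 2.98e-07). *Cry1* had 1182 and 1322 in WT and 904 and 824 in KO, and its log2 fold change of -0.53 (SE 0.12, adjusted p = 0.00112) again passed the p threshold but not the threshold on size. Both *Cry* genes were lower in each KO library than in each WT library. The antisense transcript *D930015M05Rik* overlaps 77.0% of *Cry2*, and the strand used in counting gene bodies is not given in the sources used here.

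*Nr1d1*, which encodes REV-ERBα, went the other way. It had 812 normalized gene body reads in WT1 and 569 in WT2, and 1167 in KO1 and 1247 in KO2. Both KO libraries lay above both WT libraries, with a mean of 691 ± 172 in WT and 1207 ± 56.3 in KO (SD, n = 2), 1.77-fold higher (log2 fold change 0.83, SE 0.14, adjusted p = 5.85e-05 from limma). The size of the rise leaned on WT2, since without that library it was 0.57 and below the threshold on size. The last 1075 bases of the *Nr1d1* transcript overlap *Thra* on the opposite strand. *Nr1d2*, which encodes the related REV-ERBβ, had 1502 and 1146 in WT and 1450 and 1436 in KO. Its groups overlapped (log2 fold change 0.14, SE 0.13, adjusted p = 0.420).

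**Figure D1:**
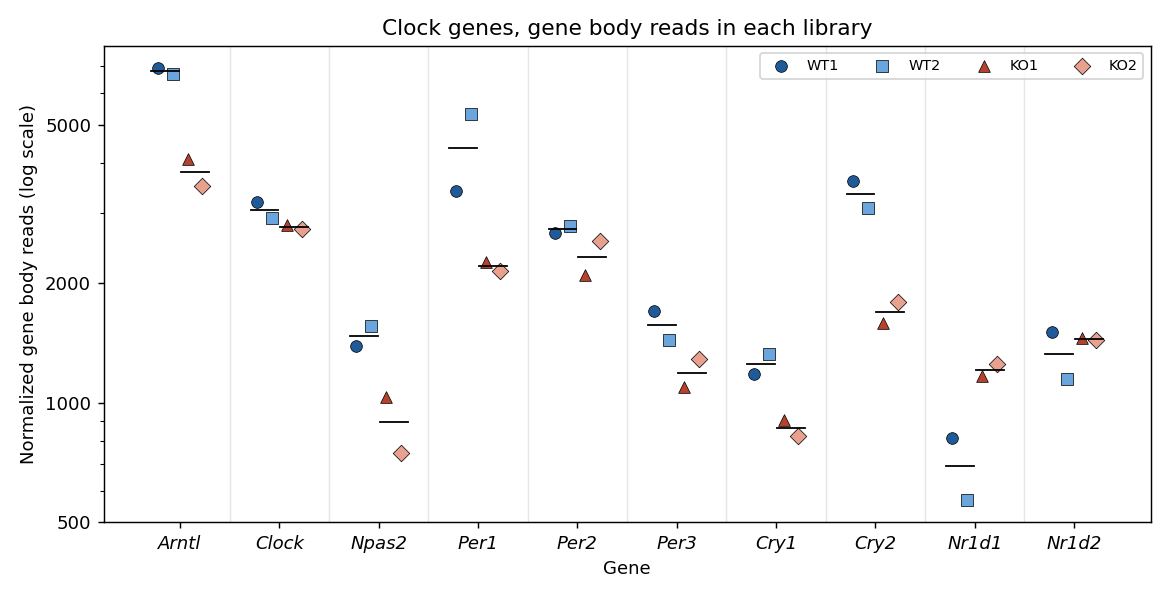
Normalized gene body reads (vertical axis, log scale) of the 10 clock genes in the libraries WT1, WT2, KO1 and KO2, with a black line at the mean of each genotype. In 8 genes both KO points lie below both WT points, in *Nr1d1* both lie above, from 569 to 812 in WT and from 1167 to 1247 in KO, and in *Nr1d2* they overlap.

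Per length, the order of the members also differed between the genotypes. In WT, mean gene body density in normalized reads per kb was 437 for *Per1*, 114 for *Cry2*, 109 for *Nr1d1*, 64.7 for *Arntl*, 64.3 for *Per2*, 39.2 for *Per3*, 38.9 for *Nr1d2*, 33.4 for *Clock*, 23.9 for *Cry1* and 8.77 for *Npas2*. Over all active genes the median in WT was 37.7 per kb, so *Per1* stood above 98.8% of active genes and *Npas2* above 10.8%. Neighbours whose WT libraries overlapped were *Cry2* and *Nr1d1*, *Arntl* and *Per2*, *Per3* and *Nr1d2*, and *Nr1d2* and *Clock*. In KO the densities were 220 for *Per1*, 191 for *Nr1d1*, 57.3 for *Cry2*, 54.9 for *Per2*, 42.4 for *Nr1d2*, 35.9 for *Arntl*, 30.3 for *Clock*, 29.8 for *Per3*, 16.5 for *Cry1* and 5.31 for *Npas2*. Here the libraries of *Cry2* and *Per2* and of *Clock* and *Per3* overlapped. *Nr1d1* and *Cry2*, which overlapped in WT, were apart in KO, at 185 and 198 per kb for *Nr1d1* and 53.8 and 60.7 for *Cry2*. *Arntl* went from the fourth place to the sixth.

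At the promoter, the same genes showed no called change. The promoter-proximal value counts the reads of the fullest stretch of 50 bp near the start site. Of the 10 members 0 were called by limma in either direction, with 1 at an unadjusted p under 0.05, and edgeR and DESeq2 on the recovered reads also called 0. Over active genes 25.8% were called up and 2.2% down, and the median log2 fold change of active genes was 0.56 on the deposited scale. The members' median was 0.42. With median-of-ratios scaling within the region, which sets the median of active genes to about 0, the numbers of active genes called changed from 3282 up and 280 down to 634 up and 942 down. Both KO libraries lay above both WT libraries in 5 of the 10 members, against 61.9% of active genes, and below in 0, against 6.72%.

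*Arntl* had 365, 266, 380 and 381 normalized promoter-proximal reads in WT1, WT2, KO1 and KO2, a log2 fold change of 0.29 (SE 0.30, adjusted p = 0.456), which is -0.27 relative to the median of active genes. Polymerase at the *Arntl* promoter was thus not called changed, while its gene body fell. *Clock* had 131 and 111 in WT and 127 and 206 in KO, a log2 fold change of 0.43 (SE 0.33). *Npas2* rested on 8 to 13 reads per library (log2 fold change -0.16, SE 0.46).

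*Per1* had 232 and 249 in WT and 275 and 377 in KO (log2 fold change 0.42, SE 0.31), and *Per3* had 81.5 and 98.0 in WT and 106 and 178 in KO (0.61, SE 0.34). In both genes the KO values lay above WT, and *Per3* sat at 0.05 above the median of active genes while *Per1* sat at -0.14. *Per2* had 51.6 and 66.0 in WT and 53.0 and 71.4 in KO, with overlapping groups (0.07, SE 0.37). *Cry1* had 207 and 165 in WT and 203 and 343 in KO (0.51, SE 0.32). Its 2 KO libraries differed by 0.76 on the log2 scale, and it was called up only without KO1 (log2 fold change 0.89, adjusted p = 0.0473). *Cry2* had 63.1 and 62.0 in WT and 45.6 and 74.4 in KO (-0.10, SE 0.37).

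*Nr1d1* had the highest promoter-proximal log2 fold change of the members. It had 75.7 and 41.0 normalized reads in WT and 87.0 and 120 in KO (0.86, SE 0.36, adjusted p = 0.0553 from limma), 0.30 above the median of active genes. *Nr1d2* had 220 and 159 in WT and 250 and 249 in KO (0.41, SE 0.32, adjusted p = 0.299). The signs of *Arntl*, *Clock*, *Per1*, *Per2*, *Cry1* and *Nr1d2* turned negative when each region was scaled on its own, and those of *Per3*, *Nr1d1*, *Npas2* and *Cry2* did not turn.

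**Figure D2:**
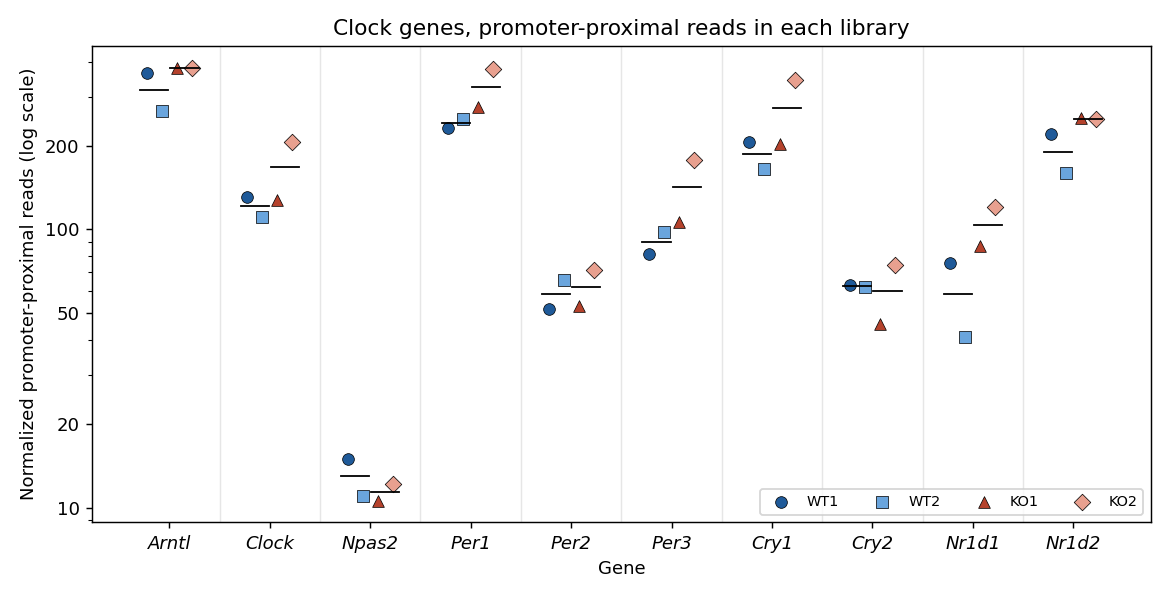
Normalized promoter-proximal reads (vertical axis, log scale) of the 10 clock genes in each library, with a black line at the mean of each genotype. KO points lie above WT points without overlap in 5 genes (*Arntl*, *Per1*, *Per3*, *Nr1d1* and *Nr1d2*), and *Npas2* is lowest, at 10.6 to 14.9.

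The pausing index sets these regions against each other, as the density of promoter-proximal reads over that of gene body reads. It was higher in KO for *Arntl*, *Per1* and *Cry1* past the thresholds, 3 of the 10 members against 12.4% of active genes called up, and 0 members were called down, against 0.519%. The index of *Per1* was 13.6 and 9.34 in WT and 24.3 and 35.2 in KO (log2 fold change 1.38, SE 0.44, adjusted p = 0.0254 from limma). That of *Arntl* was 111 and 83.7 in WT and 196 and 230 in KO (1.14, SE 0.38, adjusted p = 0.0342). That of *Cry1* was 183 and 131 in WT and 235 and 436 in KO (1.05, SE 0.37, adjusted p = 0.0447). In all 3 the KO libraries lay above the WT libraries. With a replicate block, which takes same-numbered libraries as pairs, 0 of the 3 passed (adjusted p = 0.143 for *Arntl*, 0.111 for *Per1* and 0.160 for *Cry1*), and with each region scaled by its own median of ratios 0 passed as well, where active genes called went from 1574 up and 66 down to 6 up and 11 down. The replicate block called 186 active genes up and 12 down. *Cry1* was also lost with a pseudocount of 0.1 (adjusted p = 0.0644 from limma), where 1132 active genes were called up. Without WT1, WT2 or KO2 no member was called and far fewer active genes were, while without KO1 both had more calls. With 1 library left out, the log2 fold change ranged from 0.94 to 1.34 for *Arntl*, from 1.11 to 1.65 for *Per1* and from 0.60 to 1.49 for *Cry1*.

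In 8 of the 10 members the index of each KO library exceeded that of each WT library, against 62.7% of active genes. The median log2 fold change of the index was 0.73 over the members and 0.61 over active genes. *Per3* reached 1.01 (SE 0.40, adjusted p = 0.0662) and *Cry2* 0.89 (SE 0.44, adjusted p = 0.132). *Nr1d1* had the smallest value, with an index of 11.8 and 9.09 in WT and 9.40 and 12.1 in KO (0.04, SE 0.45, adjusted p = 0.953). In *Nr1d1* the point estimates of both regions were alike, 0.86 and 0.83, and the groups of its index overlapped. *Nr1d2* had 99.9 and 94.5 in WT and 118 and 118 in KO (0.28, SE 0.39). *Clock*, *Npas2* and *Per2* had log2 fold changes of the index of 0.57, 0.58 and 0.31, and none was called.

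**Figure D3:**
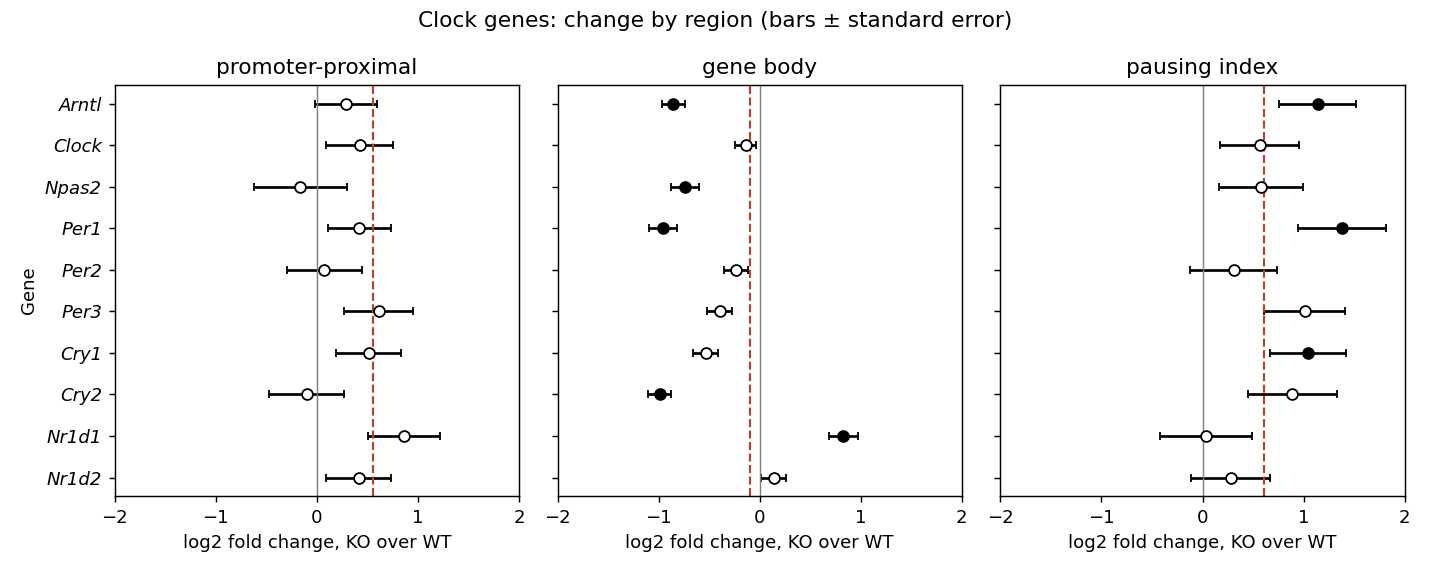
Log2 fold change of KO over WT (horizontal axis) of the 10 clock genes in the promoter-proximal region, the gene body and the pausing index, with bars of 1 SE, filled points for called genes and a dashed line at the median of active genes (0.56, -0.09 and 0.61). Gene body points of *Arntl*, *Npas2*, *Per1* and *Cry2* lie left of the dashed line and that of *Nr1d1* right of it, while no promoter-proximal point is filled.

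Around the core loop, a list of 19 further clock genes was examined, which covers activators of *Arntl*, the PAR bZIP output factors, the kinases and ligases that act on PER and CRY, and rhythmic outputs. The list was chosen with earlier results of these data known. Of the 19 genes 17 were active, and *Rorb* and *Fbxl21* were not. In the gene body 5 fell and 1 rose, where 11.4% of active genes fell and 10.4% rose, and the median log2 fold change of the list was -0.44. At the promoter 3 rose and 1 fell, against 25.8% and 2.2% of active genes, and in the pausing index 3 rose and 0 fell, against 12.4% and 0.519%. With no filter on low values only *Nampt* was still called in the gene body (adjusted p = 0.0318 from limma). The other 5 had adjusted p from 0.0625 to 0.137, and none of the 4 promoter calls was left. In that setting 406 of 20642 genes were called up and 591 down in the gene body. At the promoter 0 of all genes were called in either direction, so the loss there is not particular to the 4.

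The ROR proteins share the response elements of REV-ERB and activate *Arntl*. *Rora*, a member of this group, had 13144 and 12515 normalized gene body reads in WT and 9275 and 8647 in KO (log2 fold change -0.52, SE 0.11, adjusted p = 5.38e-04), under the threshold on size. At its promoter *Rora* rose, from 87.2 and 68.0 to 173 and 144 (1.03, SE 0.34, adjusted p = 0.0167). This call was lost with the replicate block (adjusted p = 0.0554), where 1772 active genes were called up at the promoter. It was also lost with any 1 library left out, and the log2 fold change was lowest without WT2, at 0.85. Far fewer active genes were called up without WT1, WT2 or KO2, but not without KO1.

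Of the 4 listed factors that bind D-boxes, 2 were called in the gene body. *Nfil3*, a repressor at D-boxes, had 1776 and 1517 normalized gene body reads in WT and 930 and 847 in KO (-0.89, SE 0.12). *Hlf*, a PAR bZIP activator, had 3723 and 2824 in WT and 1676 and 1960 in KO (-0.84, SE 0.13). Both fell. *Dbp* and *Tef*, the other PAR bZIP activators, are named here after their values were seen. *Dbp*, a well known target of BMAL1, had 842 and 588 in WT and 915 and 1023 in KO. Its KO libraries lay above WT, and its log2 fold change of 0.46 (SE 0.15, adjusted p = 0.0152) did not pass the threshold on size. *Tef* had 2684 and 2418 in WT and 1629 and 1825 in KO. Its KO libraries lay below WT, and its log2 fold change of -0.56 (SE 0.11, adjusted p = 3.20e-04) did not pass that threshold either.

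*Noct*, a rhythmic gene listed under its older symbol *Ccrn4l*, fell most in the list. It had 3302 normalized gene body reads in WT1 and 6684 in WT2, and 1256 in KO1 and 1438 in KO2 (log2 fold change -1.80, SE 0.19). The adjusted p of *Noct* was 5.53e-08 from limma, 1.6e-08 from edgeR and 7.48e-04 from DESeq2. Its WT libraries differed widely, with WT2 the higher as for *Per1*, and the log2 fold change was -2.31 without WT1 and -1.30 without WT2. At the promoter *Noct* fell from 246 and 329 to 90.2 and 202 (-1.07, SE 0.32, adjusted p = 0.00757), but this was -0.49 without KO1 and -1.65 without KO2. The promoter call of *Noct* was lost without KO1, WT1 (-1.28) or WT2 (-0.86), where fewer active genes were called down as well. *Nampt*, the rate-limiting enzyme of NAD salvage, had 4771 and 4639 gene body reads in WT and 2718 and 2713 in KO (-0.79, SE 0.11). *Bhlhe40*, an E-box repressor, had 2197 and 2789 in WT and 1697 and 1532 in KO (-0.62, SE 0.12, adjusted p = 2.61e-04), close to the threshold on size, and it was not called with the gene body scaled on its own (-0.54) or without WT2 (-0.45) or KO2 (-0.54). *Csnk1e*, which encodes a kinase of the PER proteins, was the gene that rose, from 911 and 1107 to 1618 and 1708 (0.73, SE 0.12, adjusted p = 3.97e-05), and without WT1 its 0.59 was under the threshold on size.

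At the promoter, *Wee1*, a cell cycle kinase with clock-controlled transcription, rose from 42.5 and 44.0 normalized reads to 103 and 117 (1.32, SE 0.36, adjusted p = 0.00334). *Ciart*, a repressor of the BMAL1 pair listed as *Gm129*, rose from 45.9 and 36.0 to 70.0 and 135 (1.24, SE 0.37, adjusted p = 0.00678). Gene body reads of *Wee1* were 425 and 427 in WT and 426 and 527 in KO. Those of *Ciart* were few, at 17.2 and 28.0 in WT and 18.0 and 16.7 in KO. *Rora*, *Wee1* and *Ciart* were also the 3 genes of this list called up in the pausing index, at 1.54, 1.17 and 1.56. With each region scaled by its own median of ratios, the promoter-proximal log2 fold changes of the 3 were 0.46, 0.76 and 0.68 and none was called in either measure, while *Noct* was still called down at the promoter (-1.64). With the replicate block *Wee1* lost its call in the pausing index (adjusted p = 0.147). All 3 lost it without WT1 or WT2, and *Ciart* and *Wee1* lost it without KO2. The promoter calls of all 3 were lost without WT1, WT2 or KO2. The promoter-proximal log2 fold change then ranged from 1.23 to 1.35 for *Wee1* and from 0.77 to 1.41 for *Ciart*. In these settings far fewer active genes were called up in the index and at the promoter, so the losses are not particular to these 3 genes.

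**Figure D4:**
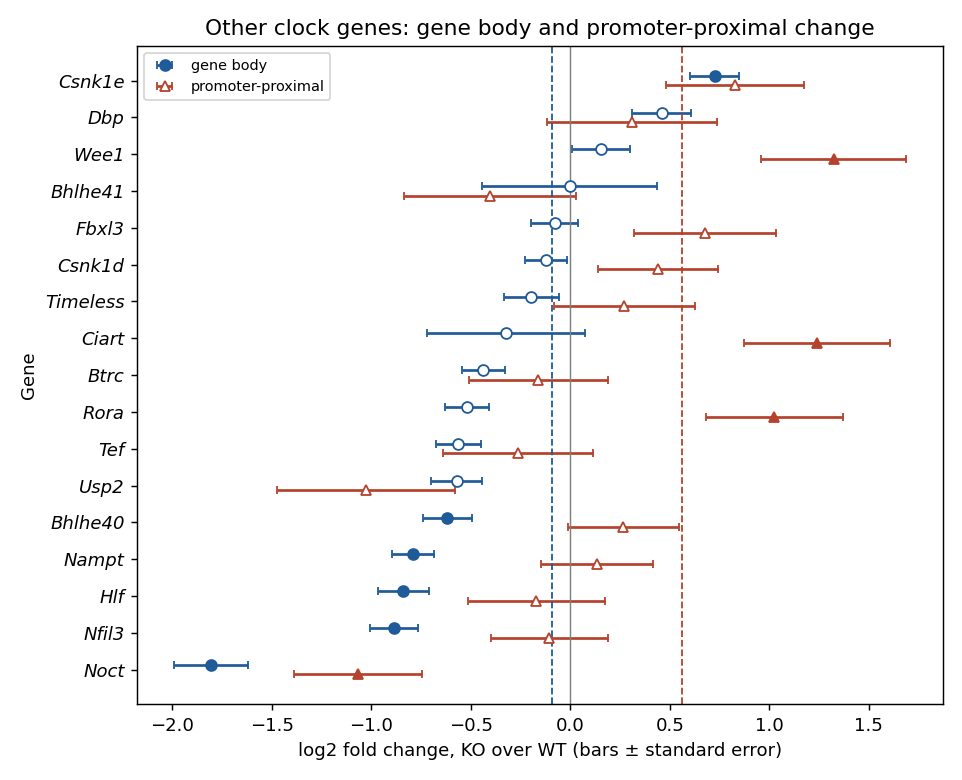
Log2 fold change of KO over WT (horizontal axis, bars of 1 SE) of the 17 active genes among the further clock genes, in the gene body (blue circles) and the promoter-proximal region (red triangles), filled where called, with dashed lines at the medians of active genes (-0.09 and 0.56). Gene body circles reach from -1.80 for *Noct* to 0.73 for *Csnk1e*, and the promoter-proximal triangles of *Wee1*, *Ciart* and *Rora* stand filled at the right.

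The list of 2282 intergenic enhancers, made by the authors from all 4 libraries pooled, holds 1 enhancer for which a clock gene is the closest gene. It lies upstream of *Cry1*, at chr10:85189355-85191593 on mm10, with its centre 5166 bp from the start site, and it is not in FANTOM5. *Cry1* is thus 1 of the 10 members with an enhancer of its own in this sense, where 10.9% of active genes have one. Within 50 kb it is again *Cry1* alone, against 9.83% of active genes. By the chromatin contacts of 4DGenome, 27 enhancers are linked to 9 of the 10 members, all but *Per2*, against 75.8% of active genes linked. Of these 27 links 14 join an enhancer and a gene on different chromosomes, and 0 name liver among the cells in which the contact was seen. The list gives no level per library, and changes of these enhancers were not analysed here.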

How the data were processed

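PRO-seq reads were trimmed by the authors with cutadapt, aligned to mm10 with Bowtie2, cleared of ribosomal and poorly mapped reads, and counted with NRSA. The deposited values are, for WT2, read counts (factor 1) and, for the other libraries, signal that the authors made by multiplying counts with 1 factor per library (1.15 for WT1, 1.06 for KO1 and 1.52 for KO2). Division by the factor gave whole reads for 100% of values (tolerance 0.001). Deposited densities are signal per bp. The enhancer list holds no values per library.

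For each symbol the transcript with the largest promoter-proximal mean was kept. A gene was active if its promoter-proximal region had reads and its gene body more than 4 normalized reads per kb, averaged over libraries. The authors applied their cutoff of 4 per kb after scaling total read counts to a fixed depth. Here it was set on the deposited scale, and a cutoff scaled by the reads on genes was an alternative. Log2 values of normalized reads plus 1, and their difference per length for the pausing index, were compared with limma 3.58.1 (trend, empirical Bayes) under R 4.3.3, and p-values were adjusted by Benjamini-Hochberg over the 12705 active genes. With 2 libraries against 2, an exact two-sided permutation p cannot go below 0.333. edgeR 4.0.16 and DESeq2 1.42.0 on the recovered reads were alternatives, since the main test is on scaled values. The authors' test of the pausing index takes replicates as strata, and limma took its place. The procedure was run on simulated data with planted changes larger than those of the members, so changes of their size were not tested there. The sources used here do not say whether same-numbered libraries were processed together. Deviations of WT1 and KO1 from their group means correlated at 0.019 over gene bodies and at -0.105 over promoter-proximal regions, across genes. With only 1 such deviation per genotype, this cannot settle whether replicate numbers pair the libraries.

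The members were taken by name and not by their values, but members and gene lists were set with earlier results of these data known. Named were the 10 members, the further clock genes called in any region with *Rora*, *Hdac3*, *Ncor1* and the genes closest to a clock gene's enhancer, and *Dbp* and *Tef* by exception. An item of the list of further clock genes is not reported here. Coordinates come from GENCODE M21 (GRCm38), and promoter sequences and motif positions from RefSeq windows of GRCm38.p6. Python 3.11.15 was used for the rest.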

Additional observations from a re-analysis of the deposited data

How the results depend on the processing

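In the gene body, the count of clock genes called, 4 down and 1 up, was the same with edgeR, DESeq2, both other scalings, both other pseudocounts, the other transcript rule and the replicate block (4 down and 1 up). Without a filter on low values, over 20642 genes, limma called 0 members down and 0 up, with 6 at an unadjusted p under 0.05. Of all genes it then called 591 down and 406 up. The cutoff on activity scaled by the reads on genes left 3 down, since *Npas2* was not among the 11100 genes that passed it. *Ciart*, of the further clock genes, did not pass it either. Using no threshold on size gave 6 down, where 2807 of the 12705 active genes were down, against 1449 with the threshold. Leaving out 1 library gave 3 to 5 down and 0 to 1 up: *Nr1d1* was lost without WT2, *Npas2* without KO2, and *Cry1* was added without WT1. The change of *Nr1d2* then ranged from -0.057 (without WT2) to 0.33.

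At the promoter, the 0 calls became 0 to 1 up with 1 library left out (*Cry1*, without KO1). With crossed replicate pairs, chosen after seeing the data, the count was 1 up at the promoter, 4 down and 1 up in the gene body and 4 up in the pausing index. Of the 12705 active genes, crossed pairs called 4861 up at the promoter and 4109 up in the pausing index, against 3282 and 1574 in the main fit. In the gene body they called 1455 down and 1330 up. Scaling each region on its own, by median of ratios and by TMM, turned the promoter-proximal changes of *Arntl* (-0.28 and -0.28), *Clock* (-0.14 and -0.14), *Per1* (-0.15 and -0.15), *Per2* (-0.49 and -0.49), *Cry1* (-0.056 and -0.058) and *Nr1d2* (-0.15 and -0.16). Leaving out 1 library, *Per2* ranged from -0.14 to 0.29, *Npas2* from -0.37 to 0.042 and *Cry2* from -0.45 to 0.25.

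In the pausing index, the 3 calls of limma became 0 with the replicate block (4 at an unadjusted p under 0.05). They became 0 with median-of-ratios scaling (1 at an unadjusted p under 0.05) and 5 with a pseudocount of 10. Among the 12705 active genes, the 1574 calls up became 186, 6 and 2343 in turn. Without WT1, WT2 or KO2 no member was called and far fewer active genes were, while without KO1 both had more calls. Median-of-ratios scaling turned the index of *Clock* to -0.083, of *Npas2* to -0.030, of *Per2* to -0.33, of *Nr1d1* to -0.61 and of *Nr1d2* to -0.37. That of *Nr1d1* was also -0.054 with a pseudocount of 10 and ranged from -0.15 to 0.22 with 1 library left out. The causes were not tested. Promoter-proximal reads were few for some members. *Npas2* had 8 to 13 per library, *Cry2* 43 to 62, *Per2* 45 to 66 and *Nr1d1* 41 to 82.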
